A study of Homo sapiens with 6 samples.

Results

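The genes described here are 9 enzymes of serine synthesis and folate-bound one-carbon metabolism, PHGDH, PSAT1, PSPH, SHMT1, SHMT2, MTHFD1, MTHFD2, MTHFD1L and ALDH1L2. They were taken by symbol from the deposited table of reads per gene, where all 9 were found among 39323 genes. The cells were MDA-MB-231, human breast cancer cells that lack oestrogen and progesterone receptors and HER2 amplification and look mesenchymal, transfected with an siRNA duplex against SF3B6 (siSF3B6, 3 libraries) or with a non-targeting duplex (siNC, 3 libraries). SF3B6 is a small subunit of SF3b, the splicing complex that contacts the intron branch point, and the series design asked what it does in this line. Both groups carried a transfected duplex, a single duplex was used against SF3B6, and replicates are called biological in the design text, but no label ties them to cultures or days. The spread that the p-values rest on is that among these libraries, which may be technical. The cell line field differs in its last digit from sample to sample, and the titles, which name the same line throughout, were used.

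Serine is made from the glycolytic intermediate 3-phosphoglycerate in a short cytosolic pathway: PHGDH oxidises it, PSAT1 adds the amino group, and PSPH removes the phosphate. Serine hydroxymethyltransferases then pass a carbon from serine to folate, leaving glycine. The carbon is used for purines, thymidylate and methionine. Each folate step has a cytosolic and a mitochondrial enzyme, SHMT1 and the trifunctional MTHFD1 in the cytosol and SHMT2, MTHFD2, MTHFD1L and ALDH1L2 in mitochondria. In breast cancer PHGDH is best known for high levels in part of the oestrogen receptor-negative tumours, and MDA-MB-231 is commonly used as a line with little of it.

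Gene totals ran from 30684131 to 38546037 reads in siSF3B6 and from 28504091 to 33754386 in siNC, and the 9 genes together held 15198 to 19551 reads in siSF3B6 and 18410 to 21083 in siNC. Mitochondrially encoded genes took 10.6% to 11.8% of reads in siSF3B6, against 3.38%, 3.93% and 9.07% in siNC replicates 1, 2 and 3. Genes with 1 to 9 reads numbered 7877 to 8325 in siSF3B6 and 13952, 14956 and 7731 in siNC replicates 1 to 3, so siNC replicate 3 lay with the siSF3B6 libraries on both measures. The part of this difference in the results below was not tested. Values with siNC replicate 3 alone on the control side stand beside many of the results. A fit without mitochondrially encoded genes is given further below. Among the markers of the line, VIM stood at 3200 ± 181 CPM in siSF3B6 and 3020 ± 217 CPM in siNC (CPM, reads relative to the TMM-scaled library size; SD, n = 3 each), while SPARC, on the same list, stood at only 1.84 ± 1.72 CPM in siSF3B6 and 0.675 ± 0.209 CPM in siNC. SPARC (log2 fold change 1.49, edgeR adjusted p = 0.0352) and ZEB1 (0.30, 0.0278) of this list of 5 rose. The group means of ESR1 and PGR were under 0.3 CPM. Of 7 luminal and epithelial markers 4 were tested and 3 rose in siSF3B6, EPCAM (log2 fold change 1.09), CDH1 (0.56) and GATA3 (0.50), with summed levels of 98.6 to 104 CPM in siSF3B6 and 74.6 to 91.0 CPM in siNC. Summed levels of 10 blood, endothelial and fibroblast markers were 15.8 to 24.6 CPM in siSF3B6 and 14.2 to 19.2 CPM in siNC, and of the 5 tested PTPRC rose and PECAM1 fell. CD3E, VWF and CDH5 had 0 to 8 reads in each library, while siSF3B6 replicate 2 held 104 reads of COL3A1, against 4 to 6 in the other 5 libraries, 114 of LYZ, against 2 to 42, and 141 of SPARC, against 14 to 29. Their part in the results was not tested. In RNA from whole cultures, fewer cells that express a gene and less of its RNA per cell cannot be told apart.

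SF3B6 had 22.5, 25.0 and 21.3 CPM in siSF3B6 replicates 1 to 3, against 86.4, 80.5 and 102 CPM in siNC. Its log2 fold change was -1.96 (SE 0.104; edgeR quasi-likelihood test, Benjamini-Hochberg adjusted p = 1.43e-07).

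The 9 genes were expressed over a wide range. The levels per length were first read from the FPKM values that the authors deposited (fragments scaled for gene length and library size). SHMT2 was highest, at 33.3 ± 3.13 FPKM in siSF3B6 and 41.3 ± 0.263 FPKM in siNC, followed by PSAT1 at 28.4 ± 1.03 FPKM in siSF3B6 and 32.2 ± 1.95 FPKM in siNC (SD, n = 3 each). PHGDH, the first enzyme of the pathway, was far lower, at 0.483 ± 0.0929 FPKM in siSF3B6 and 0.927 ± 0.138 FPKM in siNC. By its siNC FPKM, PHGDH stood above 22.4% of the 13507 tested protein-coding genes, against 90.6% for PSAT1 and 93.1% for SHMT2. These shares rest on the lengths behind the FPKM, 3.58 times the coding transcript for PHGDH but 1.01 times for PSAT1. They place PHGDH too low beside PSAT1 and were not recomputed. Per kilobase of coding transcript the first enzyme of serine synthesis was still low beside the second. In siNC PHGDH had 3.85 ± 0.602 CPM per kilobase and PSAT1 38.0 ± 1.92. ALDH1L2, which oxidises formyl-folate in mitochondria, was almost absent, with 8, 14 and 10 reads in siSF3B6 and 8, 8 and 2 reads in siNC.

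In siSF3B6 the order by FPKM was SHMT2, PSAT1, PSPH, MTHFD1, MTHFD1L, SHMT1, MTHFD2, PHGDH and ALDH1L2, and PSPH and MTHFD1 overlapped. In siNC MTHFD1 was above PSPH, and no neighbours in the order overlapped. These levels depend on the length used. Dividing reads by FPKM gave back lengths near the sum of all annotated exons of the gene rather than of a transcript: 9261 bases for PHGDH, whose exons in GENCODE release 29 cover 9217 bases while its main coding transcript has 2585. The length was scaled on 360 protein-coding genes with a single transcript, whose values lay between 0.845 and 1.16 of their annotated length from the 5th to the 95th percentile. SHMT1 had 7313 bases against 2464 in its coding transcript, and MTHFD2 11470 against 4456, whereas PSAT1 had 2211 against 2188. For MTHFD1 (12243 bases) and MTHFD2 the length was above the 9377 and 4870 bases of all exons in this release. The FPKM of PHGDH, SHMT1 and MTHFD2 are therefore low relative to that of PSAT1. Per kilobase of coding transcript, SHMT1 had 11.5 ± 0.634 CPM in siSF3B6 and 16.4 ± 0.573 CPM in siNC, and moved above MTHFD1L in both groups and above PSPH in siNC. PHGDH, at 2.08 ± 0.402 CPM per kilobase in siSF3B6 and 3.85 ± 0.602 in siNC, stayed the eighth of the 9 by either length.

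**Figure D1:**
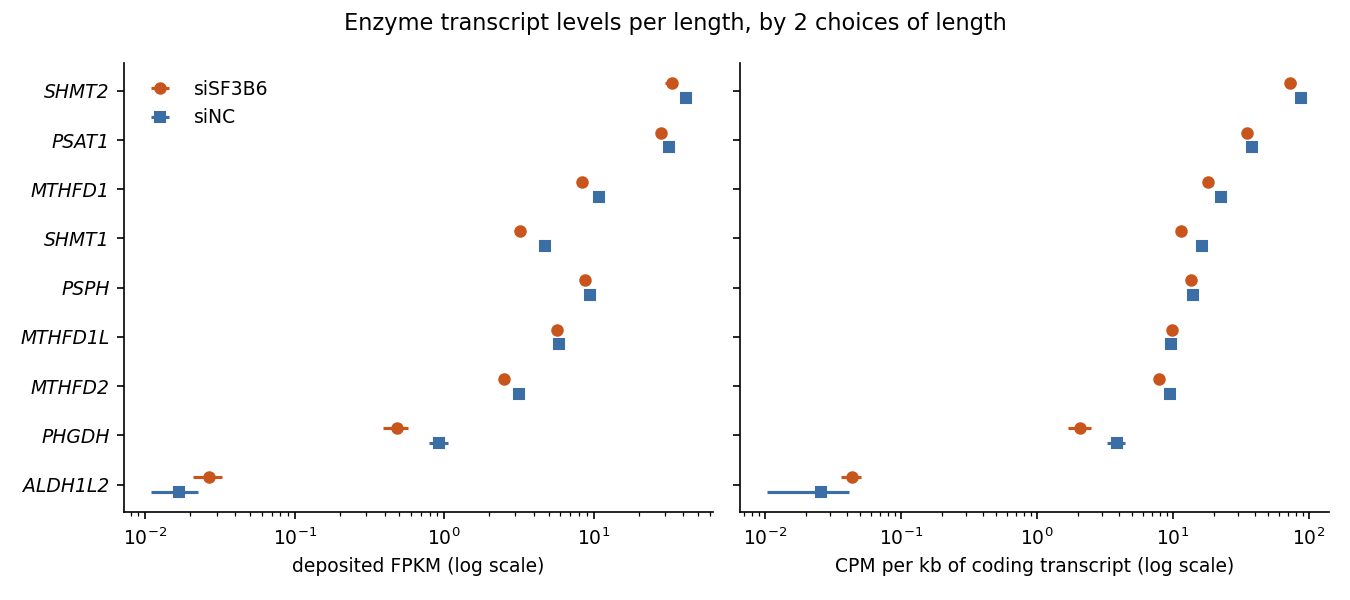
Mean level of each enzyme transcript in siSF3B6 (circles) and siNC (squares) with SD over 3 libraries, as deposited FPKM (left) and as TMM-scaled CPM per kilobase of the GENCODE coding transcript (right), both on log axes. SHMT2 and PSAT1 are at the top and PHGDH and ALDH1L2 at the bottom of both panels; SHMT1 takes a higher rank in the right panel than in the left.

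Of the 8 enzymes that passed the filter on low counts, 5 were lower in siSF3B6, 0 were higher and 3 did not pass the threshold (adjusted p under 0.05). The filter left out ALDH1L2. Over all 16869 genes tested, 3380 (20.0%) were called lower and 3509 (20.8%) higher, 40.8% in either direction; with library size in place of TMM factors 4558 were lower and 2459 higher. The median log2 fold change of the 8 enzymes was -0.27, against 0.001 for all genes. Most of the changes were small: the 5 enzymes that fell had a median of -0.31, against -0.50 for all genes called lower. In 6 of the 8 every siSF3B6 library lay below every siNC library, which held for 25.9% of all genes, and in 0 the reverse, which held for 26.3%. Leaving out siNC replicate 1 left 3 enzymes called lower, and 2, SHMT1 and MTHFD1, were called against siNC replicate 3 alone.

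Within serine synthesis, only PHGDH passed the test. It had 5.68, 6.23 and 4.22 CPM in siSF3B6 and 11.0, 10.6 and 8.16 CPM in siNC. All siSF3B6 libraries were below all siNC libraries, and in both groups replicate 3 was the lowest. The log2 fold change was -0.88 (SE 0.158, 54.1% of the siNC level; adjusted p = 0.000693). Only 3.19% of all tested genes had a more negative change. Against siNC replicate 3 alone the log2 fold change was -0.61 and the call was lost (adjusted p = 0.0666).

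PSAT1, the aminotransferase that follows, had 74.1, 74.6 and 79.3 CPM in siSF3B6 against 80.3, 80.9 and 87.9 CPM in siNC. The groups did not overlap, but the gap was narrow, and its log2 fold change of -0.13 (95% interval -0.29 to 0.04, adjusted p = 0.208) did not pass. It passed once transcript GC content and length entered the fit as an offset (-0.25, adjusted p = 0.00118) and with library size in place of TMM factors (-0.23, adjusted p = 0.0342). PSPH, the phosphatase that releases serine, had 30.7, 29.8 and 28.0 CPM in siSF3B6 against 30.8, 29.5 and 31.1 CPM in siNC. These groups overlapped, with a log2 fold change of -0.05 (95% interval -0.23 to 0.13, adjusted p = 0.683).

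Both cytosolic folate enzymes fell. SHMT1, which makes glycine and methylene-folate from serine, had 29.7, 28.7 and 26.6 CPM in siSF3B6 against 39.3, 40.1 and 42.1 CPM in siNC. The libraries of each group were close together and the groups far apart. Its log2 fold change was -0.52 (SE 0.0838, adjusted p = 0.000345), which held its direction and its call in each of the 21 alternatives tried. MTHFD1, the trifunctional enzyme that interconverts methylene-, methenyl- and formyl-folate, had 123, 123 and 124 CPM in siSF3B6 against 147, 150 and 164 CPM in siNC. Its siSF3B6 libraries were nearly equal, and its log2 fold change was -0.31 (SE 0.0756, adjusted p = 0.00482), also called in all 21 alternatives.

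Among the mitochondrial enzymes, SHMT2 and MTHFD2 fell and MTHFD1L did not pass. SHMT2 had 194, 196 and 165 CPM in siSF3B6 against 224, 224 and 218 CPM in siNC, with siSF3B6 replicate 3 apart from the other two. The log2 fold change was -0.26 (SE 0.0832, adjusted p = 0.0221). The call was lost without siNC replicate 1 (-0.26, adjusted p = 0.0749) or 2 (-0.26, 0.0757) and against siNC replicate 3 alone (-0.25, 0.214), where the change itself was nearly as large, and with the GC and length offset, where the log2 fold change was -0.13 (0.0572). MTHFD2, the dehydrogenase and cyclohydrolase of embryonic and tumour mitochondria, had 32.6, 35.0 and 37.0 CPM in siSF3B6 against 43.0, 39.8 and 44.5 CPM in siNC. The groups did not overlap, and the log2 fold change was -0.28 (SE 0.0864, adjusted p = 0.0181). With the offset it was -0.45 (adjusted p = 5.59e-05), while the call was lost on leaving out siSF3B6 replicate 1 (-0.24, adjusted p = 0.0958) or 2 (-0.28, 0.0557), on leaving out siNC replicate 1 (-0.28, 0.0673) and against siNC replicate 3 alone (-0.37, 0.0851).

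MTHFD1L, the mitochondrial synthetase that releases formate, had 34.5, 35.5 and 31.8 CPM in siSF3B6 against 34.4, 35.0 and 31.8 CPM in siNC. The groups covered the same range, with a log2 fold change of 0.01 (95% interval -0.17 to 0.20, adjusted p = 0.934). ALDH1L2 stood at 0.272, 0.379 and 0.327 CPM in siSF3B6 against 0.256, 0.265 and 0.0595 CPM in siNC, and no difference can be read from so few reads.

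**Figure D2:**
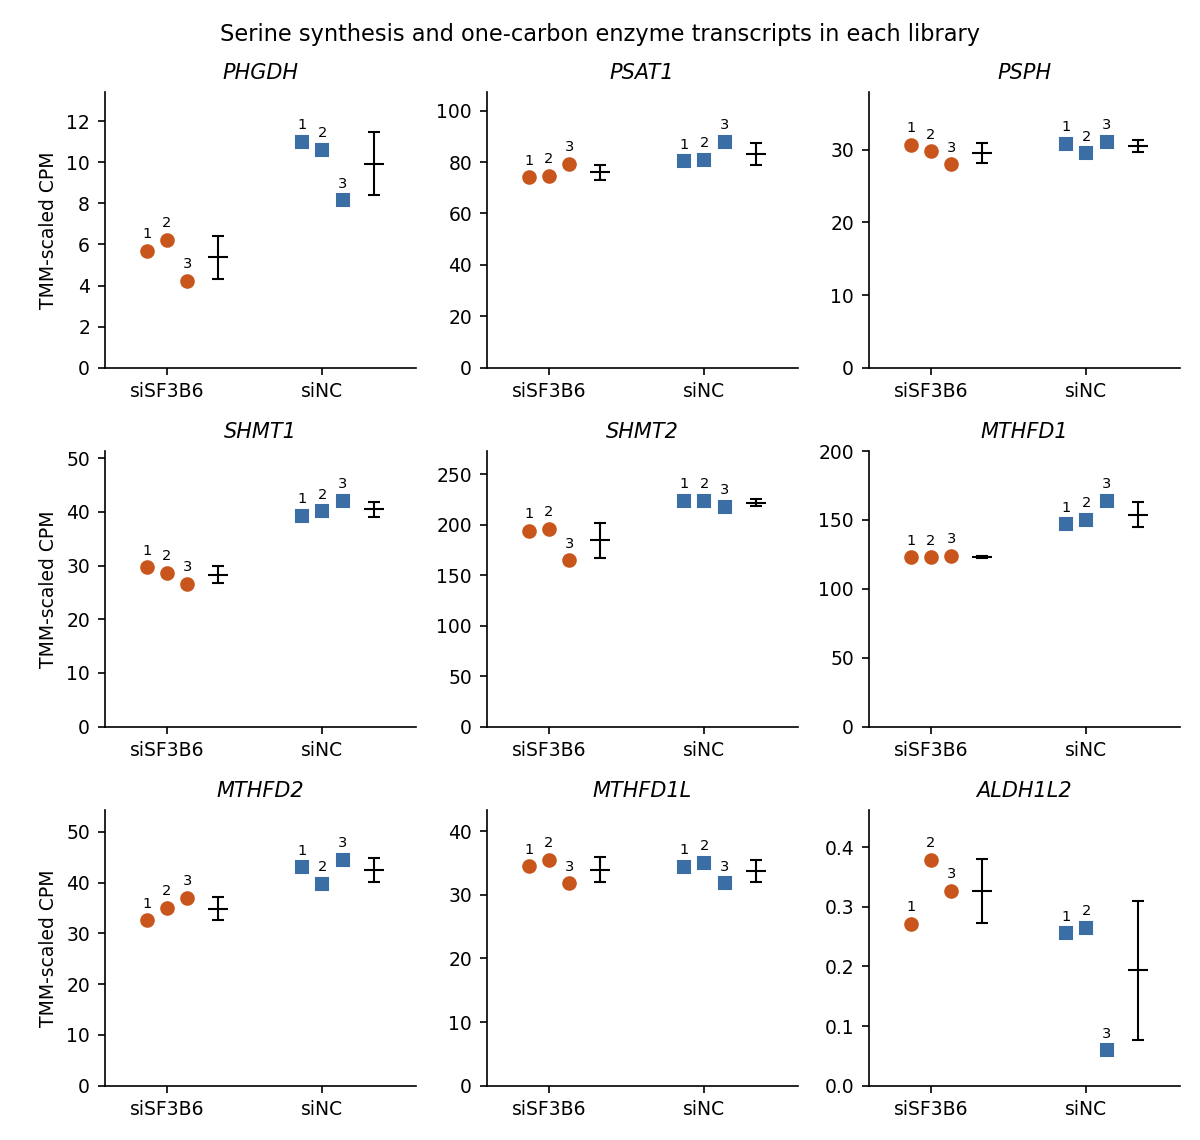
TMM-scaled CPM of each of the 9 enzymes in each library, siSF3B6 as circles and siNC as squares, with replicate numbers and the mean ± SD of 3 libraries beside them; each vertical axis starts at 0. PHGDH, SHMT1, MTHFD1, SHMT2, MTHFD2 and, by a narrow gap, PSAT1 are lower in every siSF3B6 library, while PSPH and MTHFD1L overlap. ALDH1L2 is higher in every siSF3B6 library, but with only 2 to 14 reads per library.

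**Figure D3:**
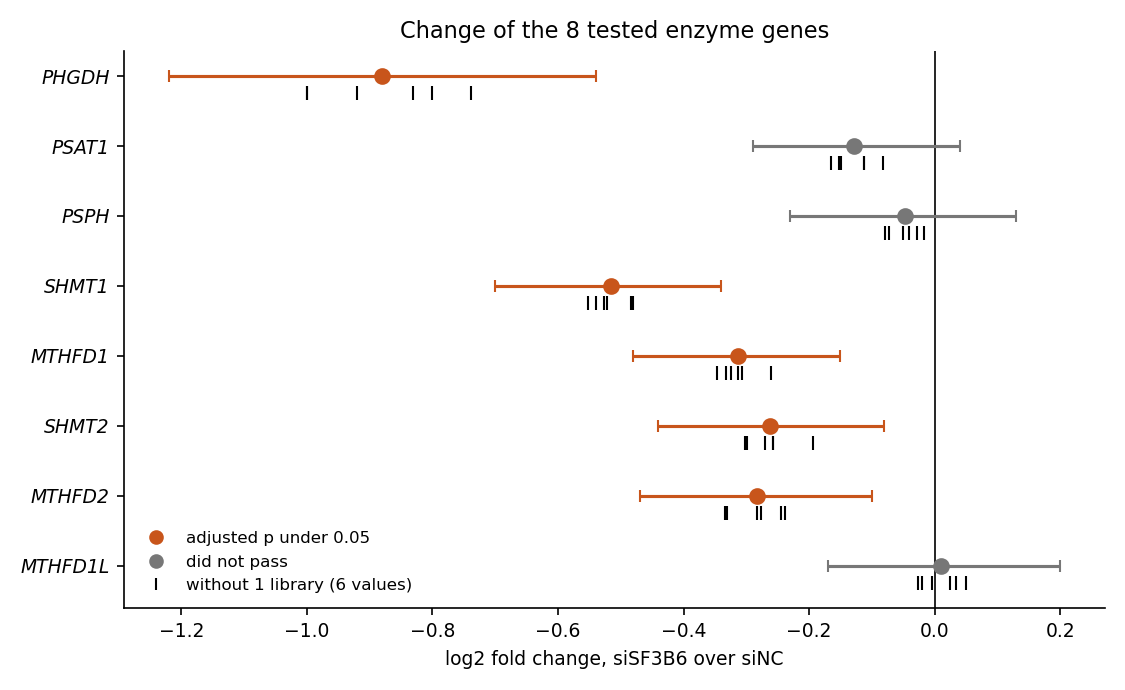
Log2 fold change, siSF3B6 over siNC, of the 8 tested enzymes with its 95% interval, and below each the 6 values obtained without 1 library. PHGDH at -0.88 and SHMT1 at -0.52 lie farthest from 0, and the intervals of PSAT1, PSPH and MTHFD1L include 0.

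For 2 pairs of cytosolic and mitochondrial enzymes that share a step, the levels were also set against each other within each library. No ratio was formed for MTHFD2, which shares steps with MTHFD1, so the 2 ratios do not cover all such pairs. The log2 fold changes of these enzymes were alike, at -0.28 for MTHFD2 and -0.31 for MTHFD1. Scaling for library size has no part in such a ratio. The ratio of SHMT2 to SHMT1 FPKM was 10.4, 10.8 and 9.85 in siSF3B6 and 9.01, 8.86 and 8.22 in siNC. The ratio of MTHFD1L to MTHFD1 FPKM was 0.699, 0.721 and 0.638 in siSF3B6 and 0.585, 0.581 and 0.483 in siNC. The size of each ratio depends on the lengths behind the FPKM. Those were 7313 bases for SHMT1 against 2464 in its coding transcript, and 4607 for SHMT2 against 2537. A length common to all libraries does not affect the comparison of the groups. In both pairs every siSF3B6 library lay above every siNC library, by 1.19-fold in the mean for SHMT2 to SHMT1 and 1.25-fold for MTHFD1L to MTHFD1. Such a gap is common here: among single genes the groups did not overlap for 25.9% lower and 26.3% higher in siSF3B6. No such share was computed for ratios. The 2 ratios restate the changes of the single enzymes given above and are no separate evidence. An exact two-sided permutation test gave p = 0.1 for each (0.1 after Benjamini-Hochberg adjustment over the 2 ratios), the smallest p that 3 libraries against 3 allow.

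**Figure D4:**
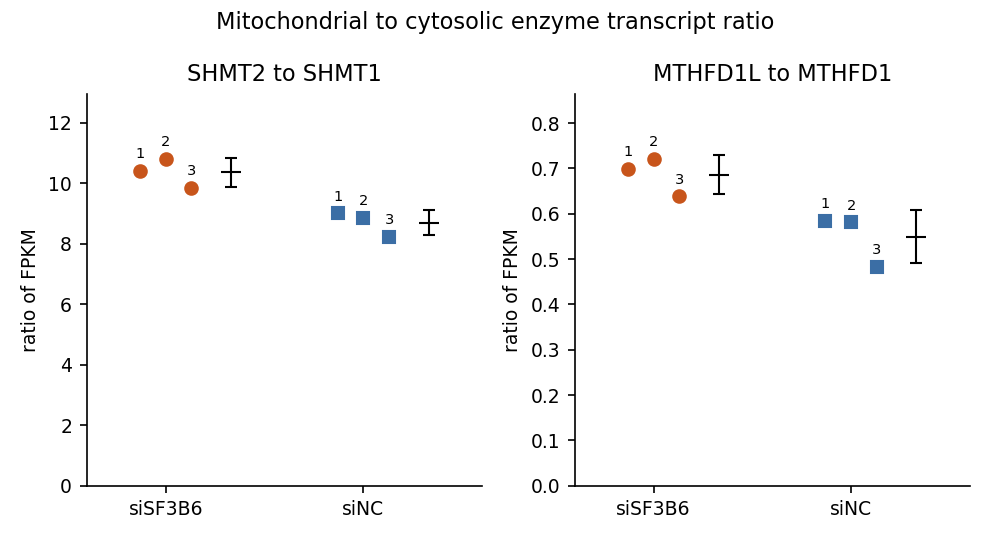
Ratio of mitochondrial to cytosolic enzyme FPKM in each library, siSF3B6 as circles and siNC as squares, with the mean ± SD of 3 libraries. The SHMT2 to SHMT1 ratio is 9.85 to 10.8 in siSF3B6 and 8.22 to 9.01 in siNC. Its size depends on the gene lengths behind the FPKM.

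The 9 genes lie on 8 chromosomes, and share no neighbourhood. On GRCh38, in GENCODE release 29, PHGDH lies on chromosome 1 at 119648411 to 119744226 (plus strand), SHMT1 on chromosome 17 at 18327860 to 18363563 (minus strand) and MTHFD1 on chromosome 14 at 64388031 to 64463457 (plus strand). SHMT2 lies on chromosome 12 at 57229327 to 57234935 and MTHFD2 on chromosome 2 at 74198562 to 74217565, both on the plus strand. All have introns, from 7 in the coding transcripts of PSPH and MTHFD2 to 27 in that of MTHFD1L, against a median of 7 over 19951 protein-coding genes. PHGDH has 14, SHMT1 and SHMT2 have 11 each, and MTHFD1 has 26. The GC content of the longest transcript was 41.4% in MTHFD2 and 42.3% in PSAT1, whose changes were more negative with the GC and length offset, and 57.0% in SHMT2, whose change was smaller with it.

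Promoter windows of RefSeq (GRCh38.p14, from 250 bases before to 50 after the start site) were found for 6 of the 9 genes. Those of PHGDH, SHMT1 and MTHFD1, the called genes with the largest falls, are shown beside the first of 4 windows of MTHFD1L, whose level did not pass the test. Capitals mark matches, on either strand, to the C/EBP-ATF response element TGATGNAAN bound by ATF4, to the E-box CACGTG bound by MYC and related factors, and to the CCAAT box.
PHGDH, chr1:119711684-119711983, plus strand: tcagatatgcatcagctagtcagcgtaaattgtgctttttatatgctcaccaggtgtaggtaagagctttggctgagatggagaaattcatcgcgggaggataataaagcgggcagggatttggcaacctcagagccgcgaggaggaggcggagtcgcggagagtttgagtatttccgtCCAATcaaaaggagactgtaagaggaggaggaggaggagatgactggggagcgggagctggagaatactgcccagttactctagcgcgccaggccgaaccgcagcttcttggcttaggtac
SHMT1, chr17:18363501-18363800, minus strand: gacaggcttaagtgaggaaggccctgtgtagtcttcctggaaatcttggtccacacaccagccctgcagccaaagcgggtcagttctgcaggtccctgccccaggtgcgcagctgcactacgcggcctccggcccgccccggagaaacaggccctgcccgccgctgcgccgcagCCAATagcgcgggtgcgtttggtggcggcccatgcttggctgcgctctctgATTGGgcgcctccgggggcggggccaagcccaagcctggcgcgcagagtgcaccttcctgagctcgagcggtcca
MTHFD1, chr14:64388103-64388402, plus strand: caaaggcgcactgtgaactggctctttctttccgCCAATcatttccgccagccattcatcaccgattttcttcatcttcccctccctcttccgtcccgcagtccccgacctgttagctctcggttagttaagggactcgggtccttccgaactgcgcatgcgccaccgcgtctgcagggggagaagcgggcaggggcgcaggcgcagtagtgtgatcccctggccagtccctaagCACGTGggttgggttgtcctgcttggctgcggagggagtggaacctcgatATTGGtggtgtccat
MTHFD1L, chr6:150866236-150866535, plus strand: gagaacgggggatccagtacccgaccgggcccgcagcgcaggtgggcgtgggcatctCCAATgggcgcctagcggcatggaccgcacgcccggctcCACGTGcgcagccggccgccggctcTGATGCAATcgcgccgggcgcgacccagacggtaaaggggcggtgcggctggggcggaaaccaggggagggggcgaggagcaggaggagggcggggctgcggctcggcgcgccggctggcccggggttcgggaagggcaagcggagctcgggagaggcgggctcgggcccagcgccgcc

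The response element was found in this MTHFD1L window, where it overlaps no other match, and in none of the windows of PHGDH, PSAT1, SHMT1, MTHFD1 and MTHFD2. It occurs in 3.61% of the 35116 promoter windows of the table. Counting the first window of each gene, the E-box occurs in those of MTHFD1 and MTHFD1L and a CCAAT box in those of all 6 genes, while over all windows of the table the shares are 7.26% and 34.6%. The fourth MTHFD1L window holds none of the 3 motifs. The motifs were chosen after these sequences were seen, and a gene can have several windows among those of the table. The shares are thus no test of the motifs. A match describes these letters only, and the lack of one says nothing about sites outside the window.

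The wider pathway was followed in 7 lists of 78 genes written from general knowledge, of which 68 were tested; 22 were lower in siSF3B6, 12 higher and 34 did not pass, with a median log2 fold change of -0.13. Over all genes 20.0% were called lower and 20.8% higher, and the shares of the lists are to be read against these; no difference between lists was tested. Of 12 tested genes for the transport and use of serine and glycine 9 were lower and 2 higher, with a median of -0.36. Among those lower were SLC1A4, a carrier of neutral amino acids that takes up serine (-0.69, adjusted p = 0.00285), SDSL, a relative of serine dehydratase (-0.69, adjusted p = 0.00181), and SFXN2, a member of the sideroflexin family (-0.67, adjusted p = 0.000552). SPTLC1 (-0.52) and SPTLC2 (-0.36), the core of serine palmitoyltransferase, fell as well. SFXN1, a mitochondrial serine carrier, fell by 0.24 on the log2 scale (adjusted p = 0.0231). Its relative SFXN3 instead had 139 ± 1.69 CPM in siSF3B6 and 88.5 ± 2.64 CPM in siNC, a rise of 0.65 (adjusted p = 2.3e-05). The other gene of the list that rose was the glycine transporter SLC6A9 (0.28, adjusted p = 0.0203). Against siNC replicate 3 alone 3 of the list were called lower and 1 higher, and SDSL was not called (-0.39, adjusted p = 0.168).

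Genes that take up, retain and reduce folate mostly did not pass, with 1 of 8 lower and 1 higher (median -0.12). With the GC and length offset 3 were lower, with library size only 3 were lower and 0 higher, within the libraries numbered 1 and 2 it was 3 lower and 2 higher, and without siNC replicate 1 it was 2 lower and 0 higher. FPGS, which adds the glutamate tail that keeps folate in the cell, had 63.6 ± 7.16 CPM in siSF3B6 and 106 ± 11.2 CPM in siNC, a log2 fold change of -0.74 (adjusted p = 0.000101). GGH, which removes that tail, had 89.9 ± 7.89 CPM in siSF3B6 and 73.2 ± 4.95 CPM in siNC (0.30, adjusted p = 0.0156). Its call was lost in 7 of 21 alternatives, among them those without siNC replicate 1 (0.27, adjusted p = 0.0757) or 2 (0.26, 0.0805), against siNC replicate 3 alone (0.18, 0.416) and with library size in place of TMM factors (0.20, 0.0957). Of 8 other folate-dependent enzymes 2 were lower and 1 higher (median -0.09). TYMS, which makes thymidylate from methylene-folate, had 128 ± 1.52 CPM in siSF3B6 and 209 ± 4.28 CPM in siNC (-0.71, adjusted p = 1.17e-05), and ALDH1L1, the cytosolic counterpart of ALDH1L2, was lower at 0.372 ± 0.110 CPM in siSF3B6 against 0.763 ± 0.154 CPM in siNC (-1.02, adjusted p = 0.0252). ALDH1L1 had only 8 to 28 reads a library, and its call was lost in 7 of 18 alternatives, among them those without siNC replicate 1 (adjusted p = 0.108) or 2 (0.0734) and without siSF3B6 replicate 1 (0.103) or 2 (0.0799). Against siNC replicate 3 alone its log2 fold change was -0.69 (adjusted p = 0.437). MTHFD2L, the isozyme of MTHFD2, had 21.9 ± 1.24 CPM in siSF3B6 and 16.6 ± 1.81 CPM in siNC, so it moved opposite to MTHFD2 (0.41, adjusted p = 0.00563), though it was not called with the GC and length offset (0.21, adjusted p = 0.0521) or against siNC replicate 3 alone (0.23, adjusted p = 0.306). The difference between the 2 isozymes was not itself tested.

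In the methionine cycle and transsulfuration, 3 of 7 tested genes were lower and 1 higher (median -0.28). MAT2B (-0.58, adjusted p = 7.41e-05) and MAT2A (-0.28, adjusted p = 0.0103), the subunits of the S-adenosylmethionine synthetase of most tissues, and AHCY (-0.38, adjusted p = 0.00152), which clears S-adenosylhomocysteine, fell. CTH, which makes cysteine from cystathionine, rose (0.64, adjusted p = 0.00119). Against siNC replicate 3 alone its log2 fold change was nearly as large, at 0.57, but it was not called. In de novo purine synthesis, the main user of formyl-folate, 3 of 11 were lower and 1 higher (median -0.15): IMPDH2 (-0.49, adjusted p = 0.000491), PFAS (-0.36, adjusted p = 0.00858) and GART (-0.28, adjusted p = 0.0093) fell. These counts moved with the settings: 7 were lower with the GC and length offset and 6 with library size only, 5 within the libraries numbered 1 and 2 and 1 against siNC replicate 3 alone, and the higher call was lost in 12 of 21 alternatives. Against siNC replicate 3 alone PFAS (-0.27, adjusted p = 0.23) and GART (-0.30, 0.124) were not called, nor was PFAS without siNC replicate 2 (-0.31, 0.0515) or GART without siNC replicate 1 (-0.25, 0.0622), with fewer libraries in each of these fits. Of the 2 tested genes of the glycine cleavage system, GCSH and DLD, 0 passed.

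ATF4, the stress-induced transcription factor known to drive PHGDH, PSAT1, PSPH, SHMT2 and MTHFD2, had 302 ± 14.2 CPM in siSF3B6 and 276 ± 13.6 CPM in siNC and did not pass (0.13, adjusted p = 0.201). Of 21 tested genes in the list of ATF4 and its other targets, 7 were higher and 4 lower (median 0.13), against 20.8% higher and 20.0% lower over all genes, so the lower share was near that of all genes. DDIT4 (0.73, adjusted p = 4.03e-05) and CTH rose, while ATF5 (-0.61, adjusted p = 0.000321) and the asparagine synthetase ASNS (-0.35, adjusted p = 0.0039) fell. Over the alternatives 2 to 12 of this list were called higher and 1 to 6 lower; against siNC replicate 3 alone it was 2 and 1.

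**Figure D5:**
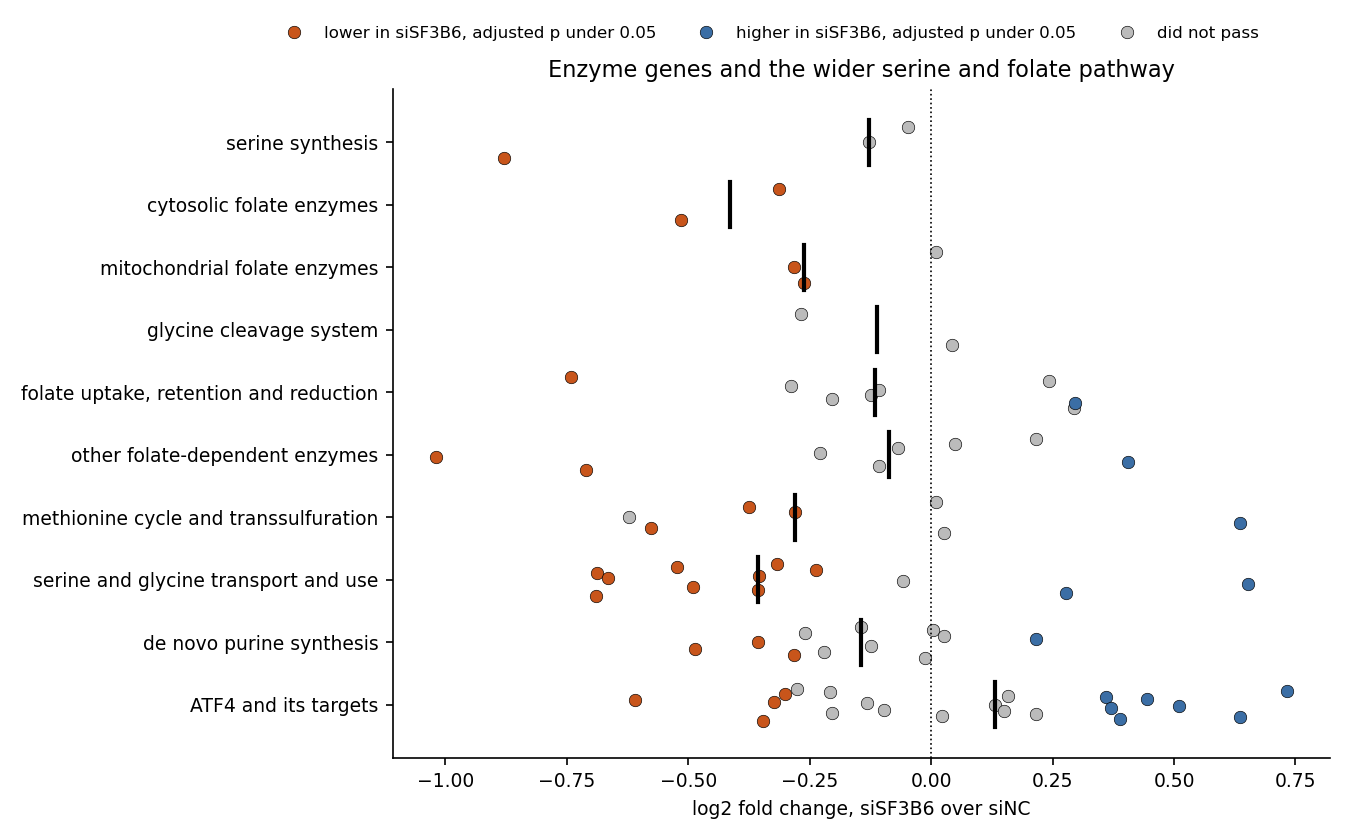
Log2 fold change, siSF3B6 over siNC, of every tested gene of the enzyme groups and of the 7 wider lists; each point is a gene, colour gives the call and the black line the list median. The serine transport and use list lies mostly below 0 with a median of -0.36, and the ATF4 list spreads to both sides with a median of 0.13.

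The genes whose pattern over the 6 libraries was most like that of PHGDH, the enzyme with the largest change, were PGLS, DMPK and JDP2, with Euclidean distances of 0.0847, 0.0861 and 0.102 in log2 CPM centred on the siNC mean, out of 11298 genes of at least 5 CPM. PGLS, 6-phosphogluconolactonase of the pentose phosphate pathway, had 64.8, 65.7 and 48.4 CPM in siSF3B6 and 115, 114 and 88.8 CPM in siNC. As in PHGDH, replicate 3 was the lowest in both groups. The choice by distance over these same 6 libraries favours such a match, so it is no separate evidence.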

How the data were processed

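Polyadenylated RNA was sequenced from 3 siSF3B6 and 3 siNC libraries, grouped by sample title; strand-specific libraries were made per the labels' protocols. The authors deposited raw read counts per gene (39323 genes) and FPKM values (39210 genes). The submitters' processing notes list HISAT2, DESeq2 and the hg38 build. Which program counted the reads, whether it used strand, and with which gene models, is not given in the sources used here.

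Counts were tested with edgeR 4.0.16 in R 4.3.3: filterByExpr, TMM factors, glmQLFit and glmQLFTest, siSF3B6 over siNC, no replicate block, Benjamini-Hochberg adjustment over 16869 genes, threshold 0.05. SE is the log2 fold change over the square root of F, and 95% intervals use its degrees of freedom. The test was checked on simulated counts. It called 42% of 50 genes changed 1.3-fold and 88% of 50 changed 1.5-fold, with 8 false calls. Smaller changes were not simulated, so a gene that did not pass may have changed by a small amount. The level of 1 marker gene is not reported here. Same-numbered libraries correlated at 0.0397, 0.106 and 0.136 in their deviations from the group means, against -0.120 to 0.0369 for unlike numbers. Each library thus correlated best with its own number. No label says that a number marks a shared day or batch, so the block was kept as an alternative.

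The enzymes, lists and motifs were chosen with earlier results of these data known. The motifs were chosen after the promoter sequences were seen. Named were the enzymes, SF3B6, MTHFD2L, ALDH1L1, up to 3 called genes per list with at least 5 CPM and the largest change, and the 3 genes most like PHGDH; MAT2A, SFXN1, SFXN3, SLC6A9, SPTLC1, SPTLC2, ASNS, ATF4, markers, neighbours and copies were added after their values were seen. Alternatives used DESeq2 1.42.0, limma 3.58.1 (voom, or log2(FPKM + 1) and log2(FPKM + 0.1)), other scalings and filters, the block, robust dispersion and fewer libraries. The GC and length offset (lowess, span 0.3, longest GENCODE release 29 transcript), leaving out mitochondrial genes and levels per coding transcript were added after seeing the data.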

Additional observations from a re-analysis of the deposited data

How the results depend on the processing

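SF3B6, SHMT1 and MTHFD1 kept their direction and call in all 21 alternatives, and both compartment ratios kept their direction in 8 each, the log2 difference ranging from 0.211 to 0.286 for SHMT2 to SHMT1 and from 0.232 to 0.374 for MTHFD1L to MTHFD1. With the replicate number as a block, which no label supports, each library correlated best with its own number and 4047 genes were called higher and 4005 lower, with the same 5 enzymes called. With siNC replicate 3 as the lone control, assumed to vary like the siSF3B6 libraries, PHGDH had -0.609, SHMT2 -0.25 and MTHFD2 -0.365, none called, 2 enzymes were called lower, and 1293 genes were called lower and 1178 higher, of which 11 and 3 in the wider lists. With unfiltered log2(FPKM + 1), SHMT2 had -0.31 and MTHFD2 -0.248, not called, 3 enzymes were called lower, 1561 genes were called higher and 4 of the wider lists were. With the GC and length offset SHMT2 had -0.128 and was not called, and PSAT1 had -0.245 and was called. PSAT1 was also called with library size only (-0.23), where the median of all genes moved by -0.10 and 7 genes of the wider lists were called higher, and within the libraries numbered 1 and 2 (-0.114), where 19 were. PSPH changed sign within the libraries numbered 1 and 2 (0.00701), and MTHFD1L with library size only (-0.0951), log2(FPKM + 0.1) (-0.0407) and log2(FPKM + 1) with or without filter (-0.0352); neither was called. Without single libraries SHMT2 ranged from -0.302 to -0.193, MTHFD2 from -0.334 to -0.239, MTHFD1L from -0.0272 to 0.0503 and the enzymes called lower from 3 to 5. The cause of these shifts was not tested. Depth limits ALDH1L2, with 2 to 14 reads per library.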

Other observations

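PSPH has a copy, the pseudogene PSPHP1, whose reads can be split with it. PSPHP1 had 5.07, 6.25 and 5.75 CPM in siSF3B6 against 3.40, 3.18 and 4.20 CPM in siNC, higher in all siSF3B6 libraries (log2 fold change 0.66, edgeR adjusted p = 0.00324), while PSPH itself did not pass. Of the exonic bases of MTHFD2, 33.2% are covered by antisense genes in GENCODE release 29, and of those of MTHFD1 11.0%. These shares also count AC006030.1 at MTHFD2 and AL122035.1 and AL122035.2 at MTHFD1, for which no level is given here. Of the other antisense neighbours, SLC4A5 had 0.268 ± 0.0281 CPM in siSF3B6 and 0.222 ± 0.0120 CPM in siNC. ZBTB25 had 14.7 ± 0.911 CPM in siSF3B6 and 13.4 ± 0.633 CPM in siNC. Both were far below the enzymes they overlap. SMCR8, which lies antisense to 2.7% of the exonic bases of SHMT1, was not: it had 38.3 ± 2.74 CPM in siSF3B6 and 32.7 ± 0.264 CPM in siNC and rose (0.23, edgeR adjusted p = 0.0456), while SHMT1 fell. Without the strand setting of the counter, reads of such pairs cannot be told apart.

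Several enzymes next to the pathway were near 0 in these cells. Among them, the methylthioadenosine phosphorylase MTAP stood at 0.0403 ± 0.0120 CPM in siSF3B6 and 0.0652 ± 0.0565 CPM in siNC (SD, n = 3 each). The glycine decarboxylase GLDC stood at 0.210 ± 0.0757 CPM in siSF3B6 and 0.136 ± 0.0627 CPM in siNC. CBS, of the transsulfuration list and added after its values were seen, had 3 reads in siNC replicate 3 and 0 in the other libraries. None of these was tested.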
